A study of Mus musculus with 75 samples.

Results

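Fibrillar collagen becomes a load-bearing fibre only after enzymes have modified it, and 10 genes of that chemistry were followed here across replicative senescence (RS) and across manipulation of 3 transcription factors in mouse skin fibroblasts. The genes were listed by name, 10 of the 24984 in the RNA-seq count files: the lysyl oxidases Lox, Loxl1, Loxl2, Loxl3 and Loxl4, the lysyl hydroxylases Plod1 and Plod2, the prolyl hydroxylase subunits P4ha1 and P4ha2, and Crtap. All 10 passed the filter on low counts in each of the 5 experiments. The cells were untreated skin fibroblasts of C57BL/6 mice, taken from 2-month-old females and passaged to P1, P3, P5 and P7, with 4 RNA-seq libraries at each passage. ATAC-seq, which maps open chromatin, gave 4 samples at P1 and 3 at each of P3, P5 and P7. In the interventions, also in C57BL/6 skin fibroblasts, E2f4 was overexpressed from a doxycycline-inducible lentivirus in P4 cells (2 libraries, against 2 with a vector carrying EGFP), or knocked down with the short hairpin sh1 in P3 cells (3 against 3 NT control libraries). Tead1 was knocked down with sh3 or sh4 and Atf3 with sh5 or sh6, with 3 libraries for each hairpin and 3 NT libraries for each gene. The study describes the cells of the Atf3 knockdown as pre-senescent and names no passage for those of the Tead1 knockdown in particular. Its methods give passages for proliferating cells and for senescence interventions in general, the latter later than P4, without naming the genes. Cells for the interventions came from newborn and 2-month-old mice, and the source of each library was not given. Hairpin-carrying cells and their NT controls had been infected with lentivirus and selected with puromycin, whereas the passaged cells had not. Nothing in the labels ties the libraries to separate animals, so the p-values below measure the spread between libraries, which may be technical.

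The enzymes act at successive stages of collagen assembly. In the endoplasmic reticulum, prolyl 4-hydroxylases turn prolines of the new chain into hydroxyprolines, which hold the triple helix together at body temperature, and lysyl hydroxylases add hydroxyl groups to lysines. Crtap is the non-catalytic partner of the enzyme P3h1 and of cyclophilin B in the complex that 3-hydroxylates a proline of the chain. Outside the cell, the lysyl oxidases, which need copper, oxidize lysines and hydroxylysines of collagen and elastin, and the resulting aldehydes form the crosslinks between molecules. Plod2 hydroxylates lysines of the telopeptides, the short non-helical ends, and so favours the stable hydroxylysine-derived crosslinks. In mm10 the protein-coding members lie at chr18:52516060-52529867 (Lox), chr9:58287723-58313212 (Loxl1), chr14:69608692-69695834 (Loxl2), chr6:83034205-83052566 (Loxl3), chr19:42592279-42612806 (Loxl4), chr4:147909753-147936776 (Plod1), chr9:92539636-92608428 (Plod2), chr10:59323197-59373304 (P4ha1), chr11:54100924-54131668 (P4ha2) and chr9:114375131-114390712 (Crtap).

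The libraries held 9147324 to 27552949 counts on genes, and the lowest count of any of the 10 genes in any library was 361 (Loxl4, Atf3 sh6). Atf3 sh5 replicate 3 stood apart from its group: the chi-square of its counts against its 2 replicates was 59.4 and 63.7 per degree of freedom, against 3.29 to 10.3 in the other 7 pairs of that experiment, and the counts of members and lists in that experiment are given with and without it. Of its reads, 16.8% lay on no gene or on several, against 10.5 to 13.1% in the other Atf3 libraries. P7 replicate 1 differed from the other P7 libraries by 32.9 to 43.8, against 11.2 to 16.7 among those. The targeted genes moved as their labels say for E2f4 (41.5 to 1149 CPM, counts per 1000000, in E2f4 overexpression, a value that includes the transgene, and 60 to 21.3 CPM with sh1) and for Tead1 (541 CPM in NT, 279 with sh3 and 316 with sh4). Atf3 was low throughout that experiment, at 2.98 CPM in NT, 1.34 with sh5 (adjusted p = 0.0447) and 1.72 with sh6 (adjusted p = 0.114, not called), all from edgeR's quasi-likelihood test. Both calls changed with the setting: for sh5 the adjusted p was 0.0393 without sh5 replicate 3, but 0.0552 with a replicate block, 0.092 with only the 2 groups compared and up to 0.115 without another library, and for sh6 it was 0.00864 without sh5 replicate 3, 0.00714 with only the 2 groups compared and up to 0.263 without another library (edgeR). The defining fibroblast markers Col1a1, Col1a2, Col3a1, Pdgfra, Dcn, Lum, Thy1 and Vim were present in every group. At P1 the summed markers of 5 other cell types were higher than later: macrophage markers 296 to 454 CPM against 22.1 to 61.6 CPM at P3 to P7, endothelial markers 143 to 159 against 6.18 to 41, keratinocyte markers 56.5 to 373 against 0.412 to 6.16, adipocyte markers 44.6 to 58.4 against 1.19 to 6.45 and skeletal muscle markers 129 to 201 against 29.7 to 109.6. Of the 5 adipocyte markers, Lep and Cidec were at 0 in all P1 libraries and 4 were at 0 in P1 replicate 1, so that sum rested on few genes. Schwann cell and melanocyte markers were at 34.2 to 42.9 CPM at P1, 57.9 to 78.1 at P3, 42.8 to 88 at P5 and 40.6 to 121 at P7. Summed fibroblast markers were 21243 to 23194 CPM at P1 and 30387 to 40224 CPM later. The part of these other cells in the differences from P1 was not tested, and fewer cells of a type and less RNA per cell cannot be told apart in bulk RNA.

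Promoter sequence is shown for 3 members, all of which rose from P1 to P7. P4ha1 and P4ha2, which rose with passage, each hold the letters ACGTG in the 250 bases before the start given in RefSeq (GRCm38.p6). These letters are a form of the core of the hypoxia response element, and its other form, GCGTG, was not searched. Crtap, which also rose and was the member that moved most after E2f4 knockdown, holds none of the 5 motifs searched. The unsearched GCGTG can be read on either strand in all 5 promoters matched, those of Loxl4 and Plod1 included. Its share over all promoters was not counted. The letters ACGTG are in capitals, and in P4ha1 they lie on the other strand and so read CACGT. P4ha1 is shown by the 25 bases around its site at chr10:59323270-59323294 (plus strand), P4ha2 by chr11:54100674-54100923 (plus strand) and Crtap by chr9:114390713-114390962 (minus strand).
P4ha1: tgacagagcgCACGTagcgagggct
P4ha2: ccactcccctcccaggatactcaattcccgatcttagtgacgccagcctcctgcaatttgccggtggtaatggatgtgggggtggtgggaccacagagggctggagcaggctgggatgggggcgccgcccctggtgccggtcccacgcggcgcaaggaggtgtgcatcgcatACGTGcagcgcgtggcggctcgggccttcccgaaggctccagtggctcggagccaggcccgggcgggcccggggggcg
Crtap: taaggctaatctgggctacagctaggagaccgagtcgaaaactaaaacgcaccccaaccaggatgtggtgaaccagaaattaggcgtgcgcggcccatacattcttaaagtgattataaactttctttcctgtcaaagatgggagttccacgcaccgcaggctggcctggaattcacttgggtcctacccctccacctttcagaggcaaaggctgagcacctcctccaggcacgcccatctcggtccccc
The start of P4ha1 in that table lies inside the annotated gene. The match began 16 bases before the start of P4ha1 and 78 bases before that of P4ha2. Of 32851 mouse promoters of that length, 16.6% hold ACGTG on either strand. The other searches were TGANTCA (AP-1, held by 6.75% of promoters), GGAATG (TEAD, 12.6%), and TTTCCCGC and TTTGGCGC (E2F, 0.895% and 0.417%), which were not found in the 5 promoters matched. Loxl4 and Plod1 likewise held none of the 5 motifs. Lox, Loxl1, Loxl2, Loxl3 and Plod2 were not in the promoter table. A match of letters is a description and not a binding site.

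Between P1 and P7, 7 of the 10 genes rose and 0 fell (background of 13442 genes tested: 62.5% of all genes called, 30.5% higher and 31.9% lower). A gene was called changed when its adjusted p (Benjamini-Hochberg over all genes tested) was below 0.05. The genes that rose were Lox, Loxl2, Loxl3, Plod2, P4ha1, P4ha2 and Crtap, and for each of them the P1 and P7 libraries did not overlap (7 of 10 genes, against 57.4% of all genes). Lox, Loxl2 and P4ha1 also passed a fold change of 2 (3 of 10, against 21.4% of all genes). The median log2 fold change of the 10 genes was 0.67, beside -0.01 over all genes. Loxl1, Loxl4 and Plod1 did not pass the test.

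**Figure D1:**
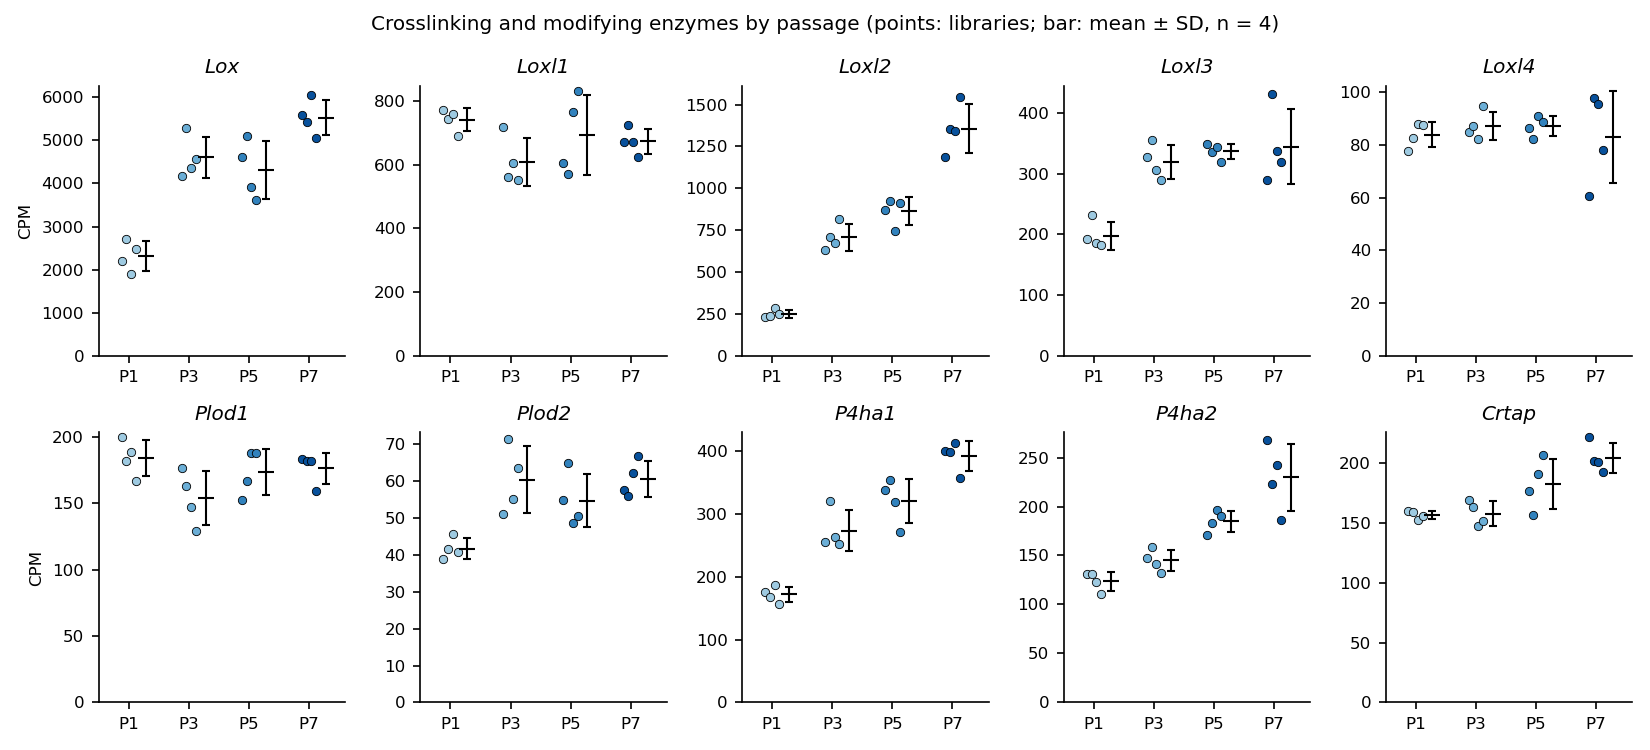
CPM of each of the 10 genes by passage (P1, P3, P5, P7; y axes start at 0), with points for the 4 libraries of a passage and bars for the mean ± SD. Loxl2 rises at every step, from 252 to 1356 CPM, while Loxl1, Loxl4 and Plod1 end near where they began.

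Lox, the founding enzyme of the lysyl oxidase family, had the highest CPM of the 10 at every passage. Its 4 libraries read 2194, 2702, 1910.4 and 2489 CPM at P1, 4181, 5290.4, 4365 and 4579 at P3, 4609, 5092, 3923 and 3624 at P5 and 5577, 5422, 6054 and 5063 at P7. The P1 libraries lay below all later ones. The change from P1 to P7 was 2.38-fold (log2 fold change 1.25 ± 0.12 (SE), adjusted p = 3.29e-08).

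Loxl2, a lysyl oxidase also known for crosslinking the type IV collagen of basement membranes, had the largest change of the 10. It read 235, 236, 287 and 249.9 CPM at P1, 632, 708, 673 and 815 at P3, 868, 926, 747 and 914 at P5 and 1184, 1352, 1344 and 1545 at P7. Every P7 library exceeded every P5 library, and the overall change was 5.38-fold (log2 fold change 2.43 ± 0.11 (SE), adjusted p = 1.41e-12).

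Loxl3 moved mostly at the first step. Its libraries read 193, 232, 185 and 182 CPM at P1, 327, 356, 305 and 289.5 at P3, 348, 336, 344 and 319.6 at P5 and 289, 432, 338 and 319 at P7, and the passages after P1 overlapped each other (log2 fold change 0.80 ± 0.11 (SE), adjusted p = 3.42e-06 for P7 against P1). Of its exonic sequence 535 bases overlap Htra2, and the counting did not use strand, so reads of the overlap cannot be assigned with certainty.

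Loxl1, a family member that acts on elastin, was at 770.0, 742, 759.7 and 690.3 CPM at P1 and 672, 723, 671 and 625 CPM at P7, with overlapping libraries. The difference was -0.14 on the log2 scale (95% interval -0.37 to 0.091, adjusted p = 0.281 by edgeR). Loxl4 was at 77.5, 82.6, 87.7 and 87.5 CPM at P1 and 60.5, 97.6, 95.5 and 78.2 CPM at P7, with the P7 libraries spread around those of P1 (log2 difference -0.015, 95% interval -0.25 to 0.22). Both intervals leave room for a small change in either direction.

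Of the lysyl hydroxylases, Plod2 rose and its relative Plod1, the hydroxylase of helical lysines, did not pass the test. Plod2 read 38.9, 41.5, 45.7 and 40.9 CPM at P1, 51.1, 71.6, 55.3 and 63.5 at P3, 55, 64.9, 48.7 and 50.6 at P5 and 57.7, 55.9, 62.2 and 67 at P7. As for Loxl3, the libraries after P1 overlapped and all stood above P1 (log2 fold change 0.54 ± 0.11 (SE), adjusted p = 0.000291 for P7 against P1). The exons of Plod2 share 346 bases with B430319G15Rik. Plod1 was at 199.8, 182, 188 and 167 CPM at P1 and 183, 182, 182 and 159 CPM at P7 (log2 difference -0.061, 95% interval -0.27 to 0.14). Its lowest group was P3, at 177, 163, 147 and 129 CPM.

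P4ha1 and P4ha2, alternative catalytic subunits of prolyl 4-hydroxylase, both rose. P4ha1 read 176, 169, 187 and 157 CPM at P1, 256, 322, 264 and 252 at P3, 338, 354.02, 319 and 272 at P5 and 401, 399, 414 and 358 at P7 (2.28-fold from P1 to P7, log2 fold change 1.19 ± 0.097 (SE), adjusted p = 2.83e-09). P4ha2 read 131, 131, 123 and 110.4 CPM at P1, 147, 159, 142 and 132 at P3, 171, 183, 196 and 190.2 at P5 and 268, 223, 242 and 186 at P7 (1.86-fold, log2 fold change 0.89 ± 0.099 (SE), adjusted p = 2.24e-07). The P7 libraries of P4ha1 lay above all those of P5, whereas those of P4ha2 overlapped P5 through replicate 4. Crtap had the smallest of the 7 rises, from 160.3, 159, 153 and 156 CPM at P1 to 222, 202, 201 and 193 CPM at P7 (log2 fold change 0.38 ± 0.084 (SE), adjusted p = 0.000575), and its P3 libraries (169, 163, 147 and 152 CPM) still overlapped P1.

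The steps differed between genes. From P1 to P3, 5 of the 10 rose and 1 fell (background: 33.4% of all genes called, 16.0% higher and 17.5% lower): Lox (0.99 on the log2 scale), Loxl2 (1.49), Loxl3 (0.69), Plod2 (0.53) and P4ha1 (0.67) rose, and Plod1 (-0.26) fell. From P3 to P5, Loxl2 (0.29) and P4ha2 (0.35) rose (background: 28.7% of all genes called, 13.4% higher and 15.3% lower), and from P5 to P7 Lox (0.36), Loxl2 (0.65), P4ha1 (0.29) and P4ha2 (0.31) rose (background: 16.8% of all genes called, 7.67% higher and 9.1% lower). Compared with P3, P7 libraries were higher in Loxl2 (0.94), P4ha1 (0.52), P4ha2 (0.66) and Crtap (0.37), 4 of 10 (background: 51.3% of all genes called, 24.8% higher and 26.5% lower). That comparison leaves out the P1 libraries, which carried more RNA of other cell types, and Lox (0.26, adjusted p = 0.0701 by edgeR), Loxl3 (0.11) and Plod2 (0.0083) were not called in it.

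Several of the smaller steps had an adjusted p not far below 0.05, and leaving out any of several libraries took away the call. Some of these libraries were outside the passages compared. The fall of Plod1 from P1 to P3 was no longer called by edgeR without P1 replicate 1, 2 or 3, P3 replicate 2, 3 or 4, P5 replicate 2 or 3 or P7 replicate 2 or 3 (adjusted p 0.0187 to 0.196 over its alternatives). The rise of Loxl2 from P3 to P5 was lost without P1 replicate 4, P3 replicate 1, 2 or 3 or P5 replicate 1, 2 or 4 (0.0194 to 0.109). From P5 to P7, the rise of Lox was lost without P1 replicate 1, P3 replicate 3, P5 replicate 1, 3 or 4 or P7 replicate 1, 2 or 3 (0.019 to 0.113), that of P4ha1 without P1 replicate 1, P3 replicate 3, P5 replicate 1, 3 or 4 or P7 replicate 1, 2 or 3 (0.0188 to 0.105), and that of P4ha2 without P5 replicate 1 or 2 or P7 replicate 1, 2 or 3 (0.00553 to 0.108). Without P7 replicate 1, the count for P5 to P7 was 1 gene (Loxl2). The 7 rises from P1 to P7 kept their calls without any single library.

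Per kilobase of exon, which allows genes to be set side by side, the order of levels changed. At P1, Lox (471 ± 70 CPM per kb, SD, n = 4) was followed by Loxl1 (222 ± 10.6) and Crtap (91.6 ± 2). Plod1 (56.6 ± 4.24), P4ha2 (52.7 ± 4.11), Loxl2 (48.7 ± 4.72), Loxl3 (48.6 ± 5.63) and P4ha1 (41.8 ± 2.97) came next, each overlapping its neighbour in mean ± SD, and Loxl4 (15.4 ± 0.891) and Plod2 (11.2 ± 0.765) were lowest. At P7, Lox (1121 ± 83.2 CPM per kb) was followed by Loxl2 (262 ± 28.5), Loxl1 (201 ± 12) and Crtap (119 ± 7.19). Crtap, P4ha2 (98.1 ± 14.7), P4ha1 (95.6 ± 5.85) and Loxl3 (84.6 ± 15.1) each overlapped the next in mean ± SD, as did Plod2 (16.4 ± 1.33) and Loxl4 (15.3 ± 3.18). Loxl2 thus moved from among the overlapping genes at P1 to the place after Lox at P7.

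The substrates and partners of these enzymes were followed as lists. Of the fibrillar collagens and elastin, 11 of 12 were tested, and from P1 to P7 7 rose and 3 fell. Col3a1, which forms fibrils with type I collagen, rose from 1811 to 7249 CPM (log2 fold change 2.00 ± 0.14 (SE), adjusted p = 3.14e-10). Col5a1 (1.53 on the log2 scale) and Col5a2 (1.24), chains of the type V collagen that starts fibrils, and the low-level Col11a2 (2.27) also passed a fold change of 2. The main substrates Col1a1 (0.53, 8997 to 12956 CPM) and Col1a2 (0.69) rose by less. Elastin (Eln), the other substrate of lysyl oxidases, fell from 27.5 to 4.02 CPM (log2 fold change -2.76 ± 0.43 (SE), adjusted p = 1.49e-05), and Col5a3 (-1.26) and Col24a1 (-1.44) also fell.

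Among partners of hydroxylation and folding, 7 of 13 tested rose and 0 fell (median log2 fold change 0.40), including P3h1 (0.73), the enzyme bound by Crtap, the third lysyl hydroxylase Plod3 (0.53), and the chaperones Fkbp10 (0.44) and Fkbp14 (0.88). Of the genes of propeptide processing, 5 of 6 rose, among them Bmp1 (0.40), the protease that also activates Lox, and its relative Tll1 (1.76). Of the lysyl oxidase partners and copper transporters, 6 of 8 rose and 0 fell, with fibronectin Fn1 (2.35), periostin Postn (1.66), fibromodulin Fmod (1.54) and fibulin Fbln5 (1.22) past a fold change of 2. Hypoxia response genes, a list to which Plod2, P4ha1, P4ha2 and Lox are often added, had 10 of 15 higher and 1 lower (median 0.44), with Pdk1 (1.61), Bnip3 (1.42), Ero1l (1.32) and the barely detected Car9 (1.06, 0.431 to 0.911 CPM) past a fold change of 2 and Egln3 lower. These counts stand beside the 62.5% of all genes called, 30.5% higher and 31.9% lower.

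ATAC-seq peaks lay within 1 kb of the start site of 9 of the 10 genes in every sample. No peak within 1 kb of the start of Loxl2 was in the files used here, so its promoter was not analysed. Each gene's strongest promoter peak was ranked by its −log10 p among all peaks of its sample, where the percentile 100 is the strongest peak. The peak lists differed in length, with 168982 to 186562 peaks in the P1 samples and 200376 to 231558 in those of P7, and the median percentile difference over all genes was -1.2 points (P7 minus P1). The part of the list length in the differences below was not tested. For 6 of the 9 genes the P1 and P7 samples did not overlap, against 46.2% of 14852 genes with a promoter peak. Loxl1 was higher at P7 (all genes 14.0% higher), and Loxl3, Loxl4, Plod1, Plod2 and Crtap were lower (all genes 32.3% lower).

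The Crtap promoter peak was at percentiles 89.8, 87.1, 88.3 and 82.9 in the P1 samples and 58.1, 65.5 and 61.1 at P7, a mean difference of -25.5 points. That of Loxl3 was at 84.5, 89.2, 86 and 84.8 at P1 and 63.9, 66.9 and 71.7 at P7 (difference -18.6). Both were lower in rank while the RNA of the same genes was higher at P7. For Plod2, whose peak was the weakest of the 9, the percentiles were 37.6, 56.7, 41.5 and 58.6 at P1 and 24.1, 29.4 and 30.8 at P7 (difference -20.5). Loxl1 was at 91.2, 91.1, 85 and 90.9 at P1 and 94.1, 94 and 94.4 at P7. The peaks of Lox (92, 93.2, 92.9 and 92.7 at P1, 91.1, 94.7 and 94.8 at P7), P4ha1 and P4ha2 overlapped between the passages, while their RNA rose.

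With 4 samples against 3, an exact two-sided permutation test cannot give a p below 0.0286. That value was reached by Loxl1, Loxl3, Loxl4, Plod1 and Crtap (adjusted p = 0.0776 over all genes), and the exact p of Plod2 was 0.0571 (adjusted 0.121), so none passed after adjustment. Over all 14852 genes, 0.0% did, and 36.8% had an exact p under 0.05. Measured by MACS2 fold enrichment instead, Crtap (8.82 ± 0.507 at P1, SD, n = 4, and 6.34 ± 1.04 at P7, n = 3) and Loxl3 (6.6 ± 0.486 and 5.24 ± 0.458) were again lower at P7. Plod2, at 2.6 ± 0.351 and 2.36 ± 0.0967, overlapped between the passages on that scale (exact permutation p = 0.343). Loxl4 and Plod1 turned direction, with mean fold enrichments of 8.11 at P1 and 9.64 at P7 for Loxl4 and 6.22 and 7.72 for Plod1, while the median over all genes was higher at P7 by 1.16. Away from the promoters, a Plod2 intron held 1 peak present in every P7 and absent from every P1 sample, 49537 bases from the start site (chr9:92591540-92591920 in mm10, percentiles 1.58 to 41.2), and 1 peak beyond the 3′ end of Loxl1 was present in every P1 and absent from every P7 sample (chr9:58286320-58287382). Of all genes, 20.5% held such a gained peak and 5.06% such a lost peak.

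**Figure D2:**
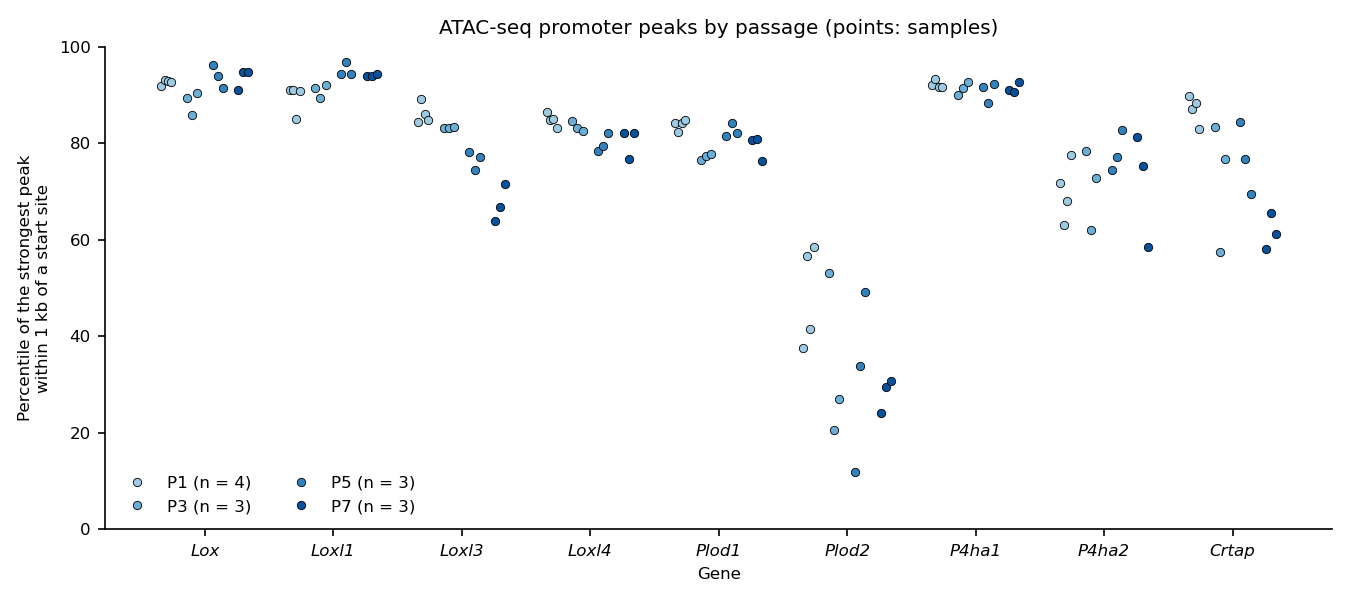
Percentile of the strongest promoter peak of 9 genes among all ATAC-seq peaks of a sample (y axis, 100 is the strongest), by passage, with 1 point per sample. Crtap and Loxl3 are lower at P7 than at P1, and Lox and P4ha1 stay near the top.

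E2f4, a pocket-protein-binding member of the E2F family, was overexpressed to ask what it does to senescing cells. Of the 10 genes, 4 fell and 2 rose (background: 57.2% of all genes called, 28.9% higher and 28.2% lower), and Lox, Loxl2 and Plod2 fell by more than 2-fold (3 of 10, against 18.1% of all genes). Lox read 7144 and 7089 CPM with vector and 3548 and 3296 CPM with E2f4 (log2 fold change -1.06 ± 0.089 (SE), adjusted p = 1.23e-05). Loxl2 went from 559 and 569 to 229 and 242 CPM (log2 fold change -1.26 ± 0.1 (SE), adjusted p = 8.99e-06). Plod2 went from 102 and 105 to 45.7 and 38.1 CPM (log2 fold change -1.31 ± 0.12 (SE), adjusted p = 2.06e-05). In each of these the groups were far apart, with 2 libraries in each.

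P4ha1 also fell, from 299 and 284 to 210.1 and 213 CPM (log2 fold change -0.46 ± 0.10 (SE), adjusted p = 0.00254). The genes that rose did so by less. Loxl1 was at 310.0 and 424 CPM with vector and 454 and 492 with E2f4 (log2 fold change 0.37, adjusted p = 0.0417 by edgeR, lost without E2f4 OE replicate 2 or vector replicate 1, up to 0.173). Crtap was at 145 and 161 CPM with vector and 191 and 199.98 CPM with E2f4 (0.35, adjusted p = 0.0152, lost without E2f4 OE replicate 1 or 2, up to 0.138). P4ha2 was at 99.5 and 96 CPM with vector and 98.6 and 97.8 CPM with E2f4, and its difference had a 95% interval of -0.22 to 0.24 on the log2 scale. Reads on no gene or on several made up 12.9 and 12.3% with vector and 7.89 and 7.5% with E2f4. Summed skeletal muscle markers were 66.8 to 76.3 CPM with vector and 22.4 to 23.8 CPM with E2f4, with 5 of the 8 (Myh3, Myh8, Myog, Myod1 and Ckm) at 0 in both groups, and fibroblast markers 25238 to 27988 and 25266 to 25459 CPM, which overlapped. Their part in these results was not tested.

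E2f4 was also knocked down in P3 cells. With sh1, 4 of 10 rose and 3 fell (background: 17.8% of all genes called, 10% higher and 7.79% lower). Crtap, the only member past a fold change of 2 (1 of 10, against 1.67% of all genes), fell from 191, 195 and 181 CPM in NT to 83.5, 84 and 75.1 CPM (log2 fold change -1.22 ± 0.069 (SE), adjusted p = 2.14e-07). Every sh1 library lay far below every NT library. Loxl4 fell from 71.4, 76.5 and 77.2 to 55.8, 51.1 and 57.4 CPM and Loxl1 from 863, 902 and 866 to 762, 709 and 622 CPM (log2 fold changes -0.45 and -0.33).

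Those that rose were Loxl3 (log2 fold change 0.40), P4ha2 (0.43), Plod2 (0.34) and Plod1 (0.22). Plod2 (55.6, 55.9 and 69.3 CPM in NT, 69.1, 80.6 and 79.7 with sh1) overlapped between groups, and its call was lost without E2f4 sh1 replicate 2 or E2f4 NT replicate 1 or 2 (adjusted p up to 0.140 by edgeR). The call of Plod1 was lost without E2f4 sh1 replicate 1 or E2f4 NT replicate 1, 2 or 3 (up to 0.127). Lox, which fell with overexpression, was at 4029, 3971 and 4115 CPM in NT and 4224, 4173 and 3554 with sh1 (log2 difference -0.02, 95% interval -0.16 to 0.12). Summed fibroblast markers were 34874 to 35951 CPM in NT and 26431 to 29759 CPM with sh1, and skeletal muscle markers 74.1 to 76.7 and 112 to 136 CPM, with Myog and Myod1 at 0 in both groups, and their part in these results was not tested. The E2f4 knockdown libraries used here carried 1 hairpin, sh1, so an effect particular to it cannot be told apart from one of E2f4.

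**Figure D3:**
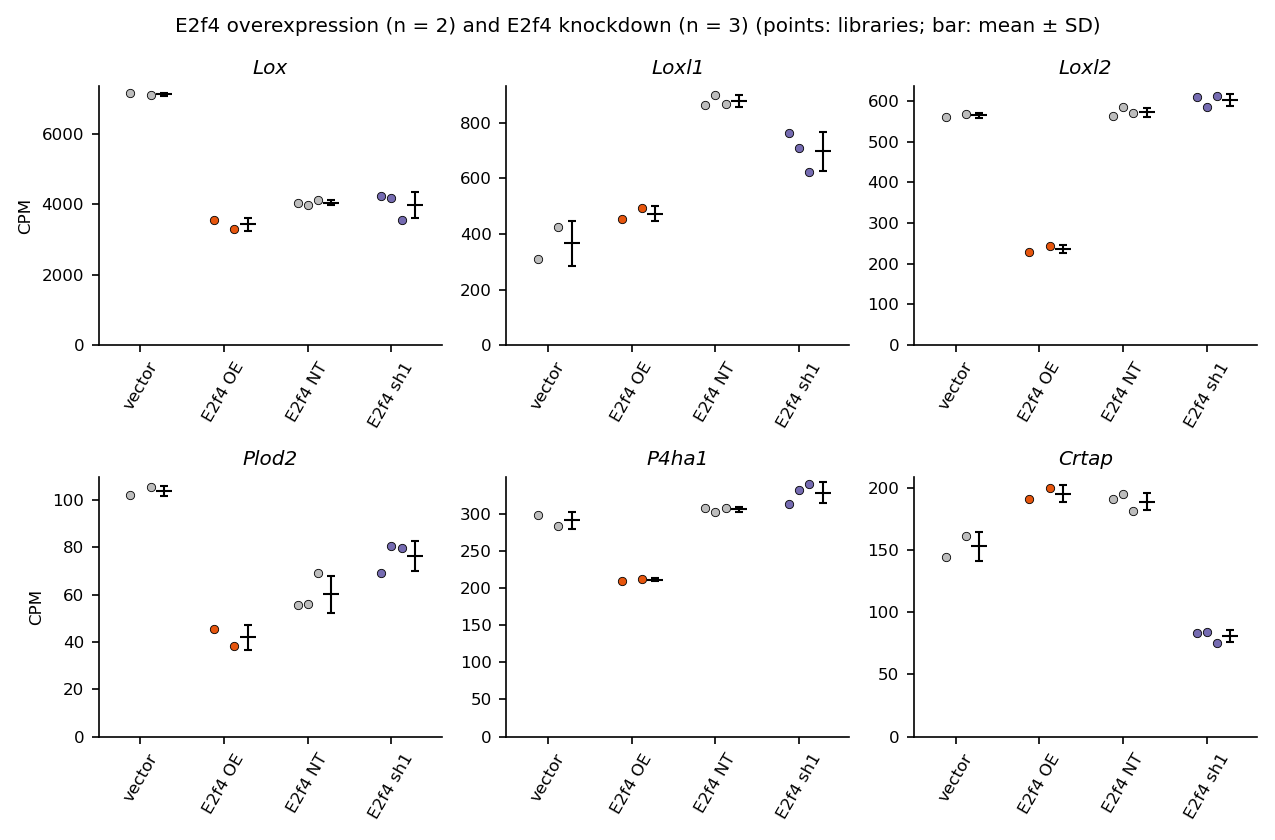
CPM of Lox, Loxl1, Loxl2, Plod2, P4ha1 and Crtap in the vector and E2f4-overexpressing libraries (2 each) and in the NT and sh1 libraries (3 each), with points for libraries and bars for the mean ± SD (y axes start at 0). Lox, Loxl2 and Plod2 are lower with E2f4 overexpression, and Crtap is lower with sh1.

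Tead1, a DNA-binding partner of YAP and TAZ, was knocked down with both hairpins. With sh3, 4 genes rose and 4 fell (background: 35.4% of all genes called, 17.6% higher and 17.7% lower), and with sh4, 5 rose and 3 fell (background: 29.1% of all genes called, 14.4% higher and 14.7% lower). No member passed a fold change of 2 with either, against 2.71% of all genes with sh3 and 1.53% with sh4. Lox rose from 4042, 4242 and 4071 CPM in NT to 6139, 6343 and 6162 CPM with sh3 (log2 fold change 0.59 ± 0.033 (SE), adjusted p = 8e-15) and 5725, 6057 and 6035 CPM with sh4 (log2 fold change 0.53 ± 0.033 (SE), adjusted p = 2.21e-13). Plod2 fell from 63.5, 68.7 and 65.3 to 40.1, 37.4 and 39 CPM (log2 fold change -0.76 ± 0.058 (SE), adjusted p = 5.8e-12) and 44.4, 46.5 and 43 CPM (log2 fold change -0.56 ± 0.057 (SE), adjusted p = 4.38e-09). These groups did not overlap. Both hairpin groups were compared with the same 3 NT libraries. The study's hairpin sequences show that sh3 and sh4 target almost the same stretch of Tead1. An effect particular to that stretch therefore cannot be told apart from one of Tead1, also where both hairpins moved a gene alike.

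Loxl2 fell from 944, 959 and 934 CPM to 717, 698 and 683 CPM with sh3 and 808, 814 and 872 CPM with sh4 (log2 fold changes -0.44 and -0.19). Loxl3 rose (0.44 with sh3, 0.31 with sh4), as did Crtap (0.26 and 0.18). P4ha2 fell (-0.16 and -0.12), with the sh4 call lost without Tead1 sh4 replicate 2 or 3 or Tead1 NT replicate 3 (adjusted p up to 0.187 by edgeR). P4ha1 fell with sh3 (-0.15) and was not called with sh4 (-0.04, 95% interval -0.12 to 0.037). Loxl4 rose (0.15 and 0.28), the sh3 call being lost without Tead1 sh3 replicate 2 or 3 or Tead1 NT replicate 2 or 3 (up to 0.252), and Plod1 passed with sh4 and not with sh3 (0.16 and 0.083, the sh4 call lost without Tead1 sh4 replicate 1 or Tead1 NT replicate 2 or 3, up to 0.0851). Loxl1 was not called with either (0.0084, 95% interval -0.067 to 0.084, and 0.05, -0.026 to 0.13).

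Tested directly, sh4 and sh3 differed in Loxl2 (0.25 on the log2 scale, sh4 minus sh3), Loxl3 (-0.13) and Plod2 (0.20), 3 of 10 genes (background: 7.37% of all genes called, 3.34% higher and 4.03% lower). In each of these sh4 lay nearer to NT. The Loxl3 difference was lost without Tead1 sh3 replicate 1, 2 or 3, Tead1 sh4 replicate 2 or 3 or Tead1 NT replicate 3, and that of Plod2 without Tead1 sh3 replicate 2 or 3 or Tead1 sh4 replicate 1 or 2 (adjusted p up to 0.210 and 0.149 by edgeR). Summed fibroblast markers were 31596 to 32524 CPM in NT, 30320.1 to 31187 CPM with sh3 and 28808 to 29792 CPM with sh4, and those of skeletal muscle 98.1 to 99.5, 64.5 to 74.8 and 72.7 to 83.6 CPM, with Myog and Myod1 at 0 in every group, and their part in these results was not tested.

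Atf3, a stress-induced factor of the ATF/CREB family, was knocked down with sh5 or sh6. With sh5, 2 genes rose and 1 fell (background: 35.9% of all genes called, 17.7% higher and 18.1% lower). With sh6, 1 rose and 5 fell (background: 49.8% of all genes called, 23.8% higher and 26.0% lower). Loxl1 fell with both, from 564, 598 and 608 CPM in NT to 332, 377 and 199 CPM with sh5 (log2 fold change -0.96 ± 0.18 (SE), adjusted p = 0.00389) and 237, 220.3 and 208 CPM with sh6 (log2 fold change -1.41 ± 0.19 (SE), adjusted p = 0.000126). Replicate 3 of sh5 was the lowest of its group.

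Lox was at 4039.8, 3708 and 3626 CPM in NT and 4077, 4020.4 and 3952 CPM with sh5, which overlapped (log2 difference 0.083, 95% interval -0.076 to 0.24), and at 1059.9, 1099 and 1221 CPM with sh6 (log2 fold change -1.75 ± 0.074 (SE), adjusted p = 9.21e-08). The sh6 libraries lay below all others of the experiment. Loxl4 was at 39.8, 41.5 and 41.7 CPM in NT, 43.3, 46.3 and 38.5 CPM with sh5 and 22.2, 22.6 and 21 CPM with sh6 (log2 fold change -0.90 with sh6). Loxl3 (-0.57) and Crtap (-0.32) also fell with sh6, and Loxl2 rose (592, 593 and 574 CPM in NT, 901, 965 and 994 CPM with sh6, 0.70).

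Plod2 rose with sh5, from 83.7, 81.4 and 86.8 CPM in NT to 122, 121 and 135 CPM (log2 fold change 0.59 ± 0.087 (SE), adjusted p = 0.0012), and was at 68.3, 72 and 82.4 CPM with sh6 (log2 difference -0.18, adjusted p = 0.113). P4ha2 rose with sh5 (0.24), a call lost with replicate numbers as a block (adjusted p 0.026 to 0.126 over its alternatives by edgeR) and without Atf3 sh5 replicate 1, Atf3 sh6 replicate 2 or Atf3 NT replicate 1, 2 or 3. The direct test of sh6 against sh5 called 7 of 10 genes (background: 52.6% of all genes called, 25.9% higher and 26.6% lower), with Lox (-1.83) the largest and Loxl2 (0.47) the only one higher with sh6. The difference in Crtap (-0.24) was lost without Atf3 sh5 replicate 1 or Atf3 sh6 replicate 2 (up to 0.0621).

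Without sh5 replicate 3, the same test called 6 members with sh5 (background: 41.4% of all genes): Loxl2 (0.16, adjusted p = 0.0298 by edgeR), Loxl3 (0.18, adjusted p = 0.0447), Plod2 (0.56, adjusted p = 4.4e-05) and P4ha2 (0.19, adjusted p = 0.026) higher, and Loxl1 (-0.71, adjusted p = 2.64e-06) and P4ha1 (-0.18, adjusted p = 0.0177) lower. With sh6 it called 8 (background: 64.4%), adding Plod1 (-0.33, adjusted p = 0.00016) and Plod2 (-0.17, adjusted p = 0.0422) as lower, and between the hairpins it called all 10, 8 lower and 2 higher with sh6 (background: 59.7%). The sh6 libraries also differed from NT in the summed markers of fibroblasts (16780.1 to 17619.7 CPM against 38312 to 40009) and of skeletal muscle (196 to 214 CPM against 37.6 to 39.1), in which Myh8 and Myog were at 0 in all 3 sh6 libraries. With sh5 the fibroblast markers summed to 24951 to 37006 CPM and those of skeletal muscle to 13.9 to 17.8 CPM. The part of these markers in the Atf3 results was not tested. Col1a1, Col1a2 and Col3a1 are in both the fibroblast sum and the collagen list given next. The fibrillar collagen and elastin list had 7 of 11 genes lower and 0 higher with sh6 (median log2 fold change -0.92), with Col1a1 at -1.83, Col1a2 at -1.33 and Col3a1 at -0.92. With sh5 it had 3 lower and 1 higher. Without sh5 replicate 3 it had 9 lower and 0 higher with sh6, and 5 lower and 2 higher with sh5.

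**Figure D4:**
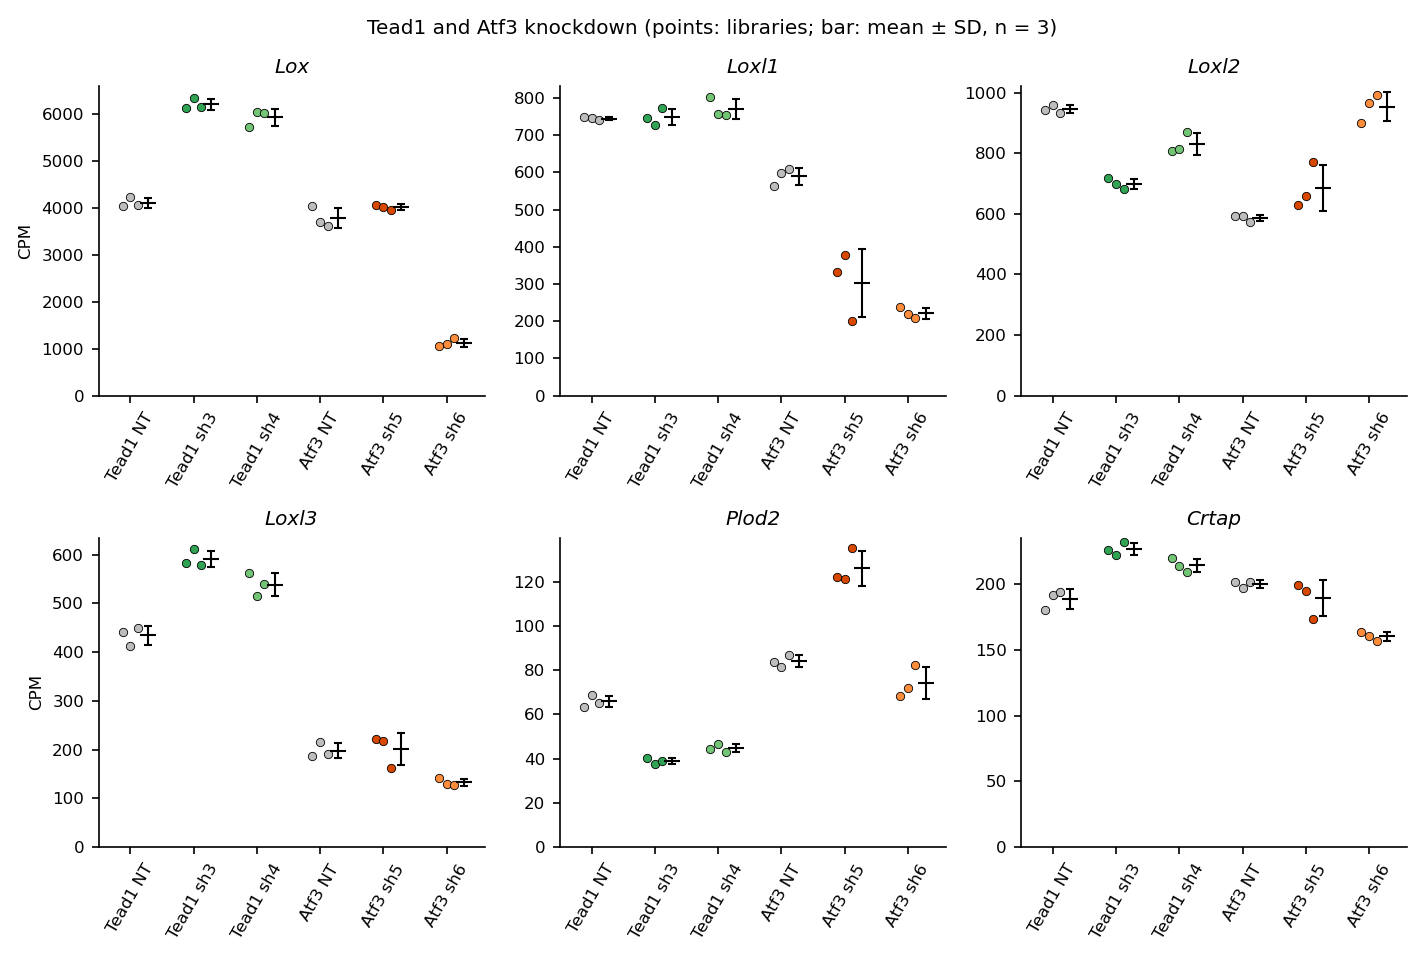
CPM of Lox, Loxl1, Loxl2, Loxl3, Plod2 and Crtap in the Tead1 and Atf3 knockdown experiments, with 3 libraries per group as points and bars for the mean ± SD (y axes start at 0). Lox is higher with both Tead1 hairpins and lower with Atf3 sh6, and sh5 replicate 3 lies apart from its group in Loxl1, Loxl3 and Crtap.

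In the other interventions the collagen substrates moved as follows. With E2f4 overexpression, 5 of 12 fibrillar collagens and elastin fell and 1 rose (median log2 fold change -0.13), and with E2f4 sh1 4 fell and 2 rose. After Tead1 knockdown 6 rose and 1 fell with sh3, and the same numbers with sh4. Hypoxia response genes had 7 of 15 higher and 4 lower with E2f4 overexpression, where Plod2, P4ha1 and Lox fell. They had 4 higher and 6 lower with Tead1 sh3, 3 and 6 with sh4, 0 and 4 with E2f4 sh1, 2 and 2 with Atf3 sh5, and 4 and 5 with sh6. Without Atf3 sh5 replicate 3 these were 5 and 2 with sh5 and 6 and 5 with sh6. Among the lysyl oxidase partners, 6 of 8 fell and 2 rose with Atf3 sh6, with or without sh5 replicate 3, and 4 fell and 2 rose with E2f4 overexpression. The background share of each comparison is the one given above.

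**Figure D5:**
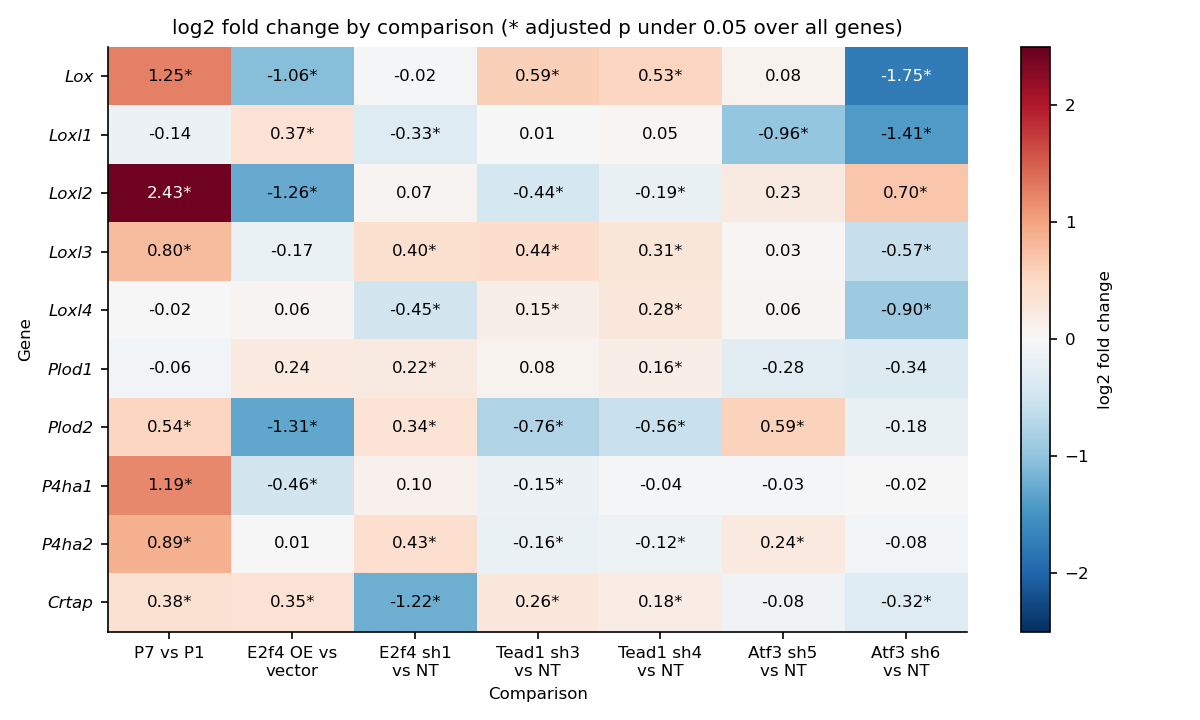
Log2 fold change of the 10 genes (rows) in P7 against P1 and in the 6 interventions against their controls (columns), where an asterisk marks an adjusted p under 0.05. Loxl2 has the highest value at P7 against P1 (2.43) and Lox the lowest with Atf3 sh6 (-1.75).

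Each member was also set beside the genes with the most similar log2 fold changes, by the root mean square difference over 9 comparisons. The search covered 9503 genes tested in every experiment, with an average of at least 3 log2 CPM in the passage fit. The comparisons share control libraries, and the measure is a description. The closest were Pcdhga8 (0.29) and Gpc6 (0.31) for Lox, Arhgef40 (0.16) and Lasp1 (0.19) for Loxl1, Pdgfd (0.29) and Enpp5 (0.30) for Loxl2, Txndc16 (0.14) and Nicn1 (0.16) for Loxl3 and Ahnak (0.14) and Bcat1 (0.16) for Loxl4, with the difference on the log2 scale in parentheses. For the other members they were H6pd (0.072) and Mmp2 (0.079) for Plod1, Klhl13 (0.16) and Vamp7 (0.17) for Plod2, Fam210b (0.10) and App (0.14) for P4ha1, Fnta (0.11) and Sra1 (0.13) for P4ha2 and Spata2 (0.26) and Hyou1 (0.28) for Crtap. None of the 10 members was among the closest genes of another.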

How the data were processed

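RNA-seq was made from 44 libraries and ATAC-seq from 13 samples of mouse skin fibroblasts; reduced-representation bisulfite samples were not analysed here. The counts deposited by the authors were made with Trimmomatic 0.39, HISAT2 2.2.1 (mm10) and HTSeq 0.12.4, without strand, as the study's methods and the submitters' processing notes give them. HTSeq summary rows, 7.5 to 16.8% of reads in the 28 libraries that list them, were left out of totals and tests. The deposited ATAC-seq peaks were called per sample by MACS2 after Bowtie2 2.3.5.1, and the authors' files give −log10 p, −log10 q and fold enrichment per peak. Counts were tested with edgeR 4.0.16 (TMM, filterByExpr, glmQLFTest, two-sided, Benjamini-Hochberg over all genes of the experiment), with each experiment as 1 fit; 13442, 13199, 12310, 13012 and 13345 genes were tested in passage, E2f4 overexpression, E2f4 knockdown, Tead1 and Atf3. Limits were an adjusted p of 0.05 and, where stated, a fold change of 2. CPM are per TMM-scaled library of the genes tested. Promoter peaks lie within 1000 bases of an annotated start and were compared by exact permutation tests over samples (numpy 2.4.6). The authors' fold values were an alternative. Named genes are the 10 members, the targeted genes, Col1a1, Col1a2, Col3a1, list genes past both limits from P1 to P7, and the 2 genes most like each member; P3h1, Plod3, Fkbp10, Fkbp14, Bmp1 and Egln3, and the gained and lost peaks, were chosen after their values were seen. Members and lists were chosen with earlier results of these data known.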

Additional observations from a re-analysis of the deposited data

Results flagged for a closer look

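Both Tead1 hairpins and both Atf3 hairpins were tested against each other, and a member is given here where that difference passed the test. Between Tead1 sh4 and sh3, the log2 difference was 0.25 for Loxl2, -0.13 for Loxl3 and 0.20 for Plod2. Between Atf3 sh6 and sh5 it was -1.83 for Lox, 0.47 for Loxl2, -0.60 for Loxl3, -0.96 for Loxl4, -0.76 for Plod2, -0.32 for P4ha2 and -0.24 for Crtap, each with sh5 replicate 3 included. In addition, 3 single values lay far from the others of their group of 4, of 49 groups examined, a number near that which chance gives at 1 in 20. P7 replicate 4 had 159.1 CPM of Plod1, with the other P7 libraries at 181.6 to 183.2. P3 replicate 2 had 321.8 CPM of P4ha1, with the others at 252.4 to 264.1. In P1 replicate 3, the Loxl1 promoter peak stood at percentile 85.0, with the others at 90.9 to 91.2.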

How the results depend on the processing

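The 79 log2 fold changes named had 1348 alternative values over the settings tried. Of these values, 1193 kept their direction and side of the threshold. Another 152 kept their direction and lost the call (55 of them in a test against a fold change of 1.5). Of the rest, 2 gained it and 1 reversed. The reversal was in Atf3 in sh6 against sh5, at 0.35 and not called under the main settings. With 1 library left out it was between -0.069 (without Atf3 sh5 replicate 3) and 0.83 (without Atf3 sh5 replicate 2). These 79 were the members called under the main settings, and the targeted genes in their own experiments. Members not called there were left out, so their gains and reversals are not in these counts. Among them, Loxl1 from P1 to P3 gained a call in 7 of 22 settings. Loxl2 with Atf3 sh5 did so in 8 of 15, and Crtap from P3 to P5 in 4 of 22. P4ha1 with Atf3 sh5 ranged from -0.18 to 0.053 on the log2 scale. The scalings moved the median of all genes by at most 0.016. Counts of the 10 members under other settings are given in the order P3 vs P1, P5 vs P3, P7 vs P5, P7 vs P3, P7 vs P1, E2f4 overexpression, E2f4 sh1, Tead1 sh3, sh4, sh4 vs sh3, Atf3 sh5, sh6 and sh6 vs sh5. With a fold change over 2 as well as the adjusted p they were 1, 0, 0, 0, 3, 3, 1, 0, 0, 0, 0, 2 and 1. In the test against a fold change of 1.5 they were 2, 0, 0, 1, 5, 3, 1, 1, 0, 0, 0, 3 and 2. Fitting only the 2 groups compared gave 1 for P5 vs P3 and 1 for P7 vs P5. Leaving out 1 library gave 5 to 7, 1 to 3, 1 to 4, 4 to 5, 7 to 7, 4 to 7, 5 to 7, 7 to 8, 6 to 8, 1 to 3, 2 to 6, 6 to 8 and 6 to 10. Replicate numbers were examined as pairs. In no comparison with 3 or more pairs did every pair correlate above 0.1. In E2f4 overexpression, with 2 libraries per group, both pairs must give the same value, which was 0.142. With the replicate block the counts were 6, 3, 4, 5, 7, 7, 7, 8, 8, 3, 2, 6 and 7; every sample correlated best with its own number in 2 of 12 comparisons, a hint from the data and not from the design. For promoter peaks, other limits gave 6, 6, 5 and 6 members whose groups did not overlap (5 with fold enrichment, 3 higher and 2 lower), and leaving out 1 sample gave 6 to 7. The cause of these changes was not tested. The lowest count of a member was 361, and each group held 2 to 4 libraries.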
